A study of Mus musculus with 27 samples.

Results

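Hmgcs1, Idi1, Fdps, Fdft1, Sqle, Lss, Insig1 and Srebf2 are 8 genes of cholesterol synthesis and its control, of 22243 gene symbols listed in the RNA-seq files analysed here. They were chosen by name, but with earlier results of these data known, so the set is not independent of these data. Each was read from the row of that name or, in the total RNA libraries, from the row covering its locus. None of the 8 encodes a receptor or carrier that takes up cholesterol, and a separate list of uptake and transport genes was read for uptake.

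All 27 libraries came from immortalized mouse embryonic fibroblasts (iMEFs) with a conditional allele of Setdb1 (Setdb1 cKO iMEFs), recloned from single cells and grown in medium with serum. Setdb1 is a histone H3K9 methyltransferase, and its deletion was induced by 4-hydroxytamoxifen (4OHT). In the total RNA experiment, rRNA was depleted, and 3 groups of 3 libraries were untreated, harvested on day 5 after 4OHT for the first 4 days, or harvested more than 2 weeks after 4OHT (long-term KO). In the siRNA experiment, 4 groups of 2 libraries were transfected with a control siRNA (siCtrl) or an siRNA against Dnmt1, the maintenance DNA methyltransferase (siDnmt1), each with or without 4OHT from day 0, and were harvested on day 6. In the inhibitor experiment, 5 groups of 2 libraries were untreated, treated for 24 h with 150 nM trichostatin A (TSA, a histone deacetylase inhibitor), treated for the last 24 h with 1 µM PD0325901 (a MEK inhibitor), harvested on day 6 after 4OHT, or given 4OHT and PD0325901 together. No 4OHT-treated cells without the conditional allele were analysed here, so exposure to 4OHT and loss of Setdb1 cannot be told apart. The labels do not say that replicates were separate cultures, and p-values then measure only the spread between these libraries.

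Cholesterol is built from acetyl-CoA through mevalonate, farnesyl diphosphate, squalene and lanosterol. When sterols are low, the transcription factor SREBP2, encoded by Srebf2, is carried by Scap from the endoplasmic reticulum to the Golgi, where proteases release its active part, and it then binds sterol regulatory elements upstream of the genes of the pathway. Insig proteins hold Scap in the endoplasmic reticulum when sterols are plentiful. Much of this feedback was worked out in cultured fibroblasts, which take up cholesterol from the lipoproteins of serum.

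Promoter sequence was printed for 3 members, since the sterol regulatory element is the sequence through which SREBP2 is known to reach these genes. Windows of 300 bases, from 250 before to 50 after the annotated start, were taken from RefSeq (GRCm38.p6), which matched 5 of the 8 members. Hmgcs1 (chr13:119690101-119690400, plus strand) is shown because its window holds the core TCACNCCAC of that element. Idi1 (chr13:8885356-8885655, plus strand) and Insig1 (chr5:28071162-28071461, plus strand) were chosen after their values were seen, for the changes given below. Capitals mark TCACNCCAC, CCAAT and GGGCGG on either strand, so that CCAAT on the opposite strand reads ATTGG.
Hmgcs1: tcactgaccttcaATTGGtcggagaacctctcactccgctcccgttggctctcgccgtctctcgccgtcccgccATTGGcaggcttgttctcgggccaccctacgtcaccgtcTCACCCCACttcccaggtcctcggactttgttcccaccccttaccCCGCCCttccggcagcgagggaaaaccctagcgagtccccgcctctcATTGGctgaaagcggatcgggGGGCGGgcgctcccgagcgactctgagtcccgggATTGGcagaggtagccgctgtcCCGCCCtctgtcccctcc
Idi1: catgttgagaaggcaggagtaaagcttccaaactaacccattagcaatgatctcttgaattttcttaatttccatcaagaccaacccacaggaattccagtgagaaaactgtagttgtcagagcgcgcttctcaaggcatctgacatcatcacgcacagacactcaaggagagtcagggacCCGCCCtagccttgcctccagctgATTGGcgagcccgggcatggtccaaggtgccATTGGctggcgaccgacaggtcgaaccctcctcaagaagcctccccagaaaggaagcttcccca
Insig1: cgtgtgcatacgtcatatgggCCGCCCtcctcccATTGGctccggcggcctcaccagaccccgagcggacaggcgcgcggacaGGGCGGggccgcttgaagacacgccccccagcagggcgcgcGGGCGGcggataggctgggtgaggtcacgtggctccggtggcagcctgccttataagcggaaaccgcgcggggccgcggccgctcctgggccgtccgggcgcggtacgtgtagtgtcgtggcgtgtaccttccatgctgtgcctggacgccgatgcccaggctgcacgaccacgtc
The core stood at bases -137 to -129 of Hmgcs1 on the strand of the gene, and in 1 of the 5 member windows against 1.24% of 32851 promoters of the same length. CCAAT stood in 5 of 5 member windows and in 37.4% of all promoters, and GGGCGG in 5 of 5 and in 35.7%. No 2 of these motifs share bases with each other in the windows shown. Sqle, Fdps and Fdft1 were not matched. A match to letters is a description and not a measured site of binding.

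**Figure D1:**
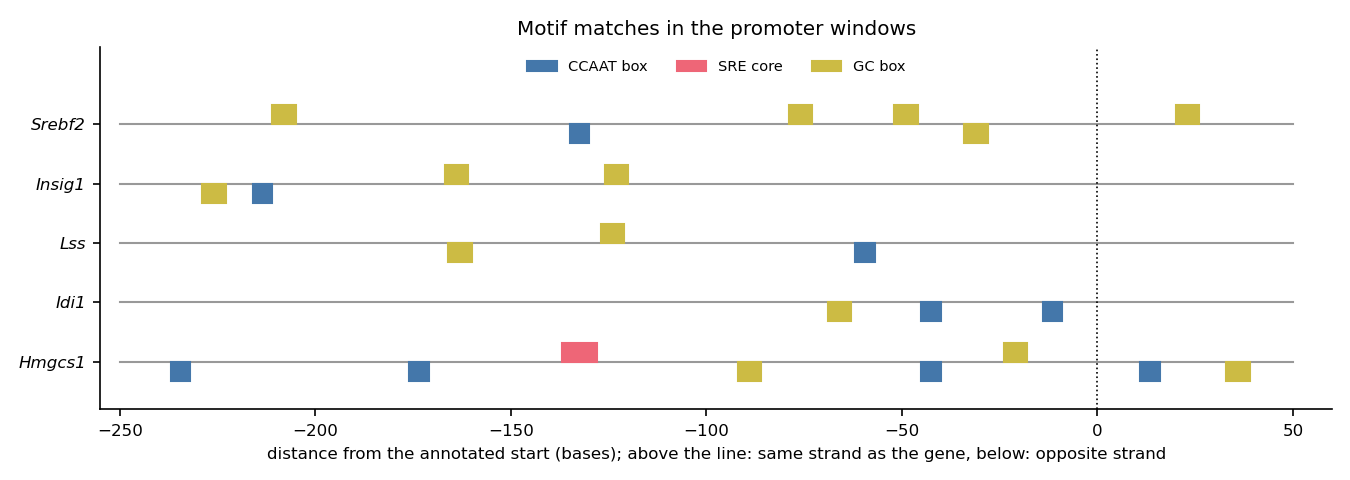
Positions of the 3 motifs in the RefSeq promoter windows of the 5 matched members, with the distance from the annotated start in bases on the x axis, boxes above each line for the strand of the gene and boxes below it for the opposite strand. Hmgcs1 holds the only match to the core of the sterol regulatory element, and each of the 5 windows holds at least 1 CCAAT and 1 GGGCGG.

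Expression was given as FPKM, the number of fragments scaled to the length of the transcript and the size of the library, so that levels of different genes can be set side by side. The deposited confidence intervals imply 34300000 to 41600000 fragments behind a total RNA library, 13300000 to 15300000 behind an siRNA library and 10700000 to 12500000 behind an inhibitor library, rounded. For a single member value they imply medians of 2039, 1114 and 880 fragments. All 7 fibroblast markers reached 1 FPKM in every group. FPKM of the whole Setdb1 gene was not lower in long-term KO, where all 3 libraries were above all untreated and day 5 libraries, and in the siRNA experiment the libraries with and without 4OHT overlapped. It was 5.16 to 5.95 in untreated total RNA libraries, 4.16 to 6.52 on day 5, 6.96 to 7.32 in long-term KO and 5.00 to 7.58 in the siRNA libraries. In the inhibitor experiment it was 8.76 to 10.1 in untreated libraries, listed at 0 in 1 library of 4OHT day 6 and 5.30 in the other, and listed at 0 in both libraries of 4OHT with PD0325901. A value over the whole gene need not fall when a part of it is deleted, and the groups are therefore named as they are labelled throughout. Dnmt1 was 73.4 to 80.5 FPKM with siCtrl alone and 10.6 to 12.18 with siDnmt1 alone. The header of the file of PD0325901 replicate 2 names a 4OHT and PD0325901 library, and the sample label was followed. Setdb1 was 5.34 FPKM in PD0325901 replicate 1 and 5.56 in replicate 2.

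The 8 genes differed in level before any treatment. Fdps, the farnesyl diphosphate synthase gene (mm9 chr3:88897510-88905889, minus strand), was the highest, at 160.9 ± 8.74 FPKM in untreated total RNA libraries (SD, n = 3). Sqle, the squalene epoxidase gene and a rate-limiting step (chr15:59146647-59162748, plus strand), followed at 63.8 ± 2.22. Insig1 (chr5:28397952-28405202, plus strand), whose protein retains Scap, was at 58.7 ± 1.40. Hmgcs1, the gene of the cytosolic HMG-CoA synthase, was at 47.6 ± 1.11, and in mm9 it lies on unplaced sequence of chromosome 13 (chr13_random:114527-326346). This locus is the longest of the 8, and no annotated gene span or strand was available to check it. Idi1, the isopentenyl diphosphate isomerase gene (chr13:8884852-8891642, plus strand), was at 43.0 ± 1.87. Srebf2 (chr15:81977699-82035390, plus strand) was at 40.9 ± 2.55, and its 3 libraries overlapped those of Idi1. Fdft1, the squalene synthase gene (chr14:63763988-63798415, minus strand), was the lowest of the 7, at 33.4 ± 0.844. Lss, the lanosterol synthase gene (chr10:75994350-76019884, plus strand), had no full row in these libraries, and a locus over 87.4% of it gave 29.7, 28.7 and 0 FPKM.

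Hmgcs1 and Lss could be tested in a part of the study only and the other members in every experiment, so 7 of 8 were tested in each. Hmgcs1 was listed at 0 in all 18 siRNA and inhibitor libraries, as were all 82 loci on unplaced sequences there, so those zeros were not used as levels. In total RNA libraries 50 to 72 loci on unplaced sequences were above 0, and the deposited interval of Hmgcs1 in long-term KO replicate 3 ran from 0 to 10832 FPKM. The value of Fdps in long-term KO replicate 3 came from a locus joined with another gene and was not used, and that of Lss in untreated replicate 1 of the inhibitor experiment was a failed estimate. Tests were made with limma on log2(FPKM + 0.1) across 9609 genes in the total RNA experiment, 10990 in the siRNA experiment and 11668 in the inhibitor experiment. A gene is said to have risen or fallen where the adjusted p (Benjamini-Hochberg, over all genes tested) was under 0.05. These are bulk libraries, in which fewer cells with a transcript and less of it per cell cannot be told apart.

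**Figure D2:**
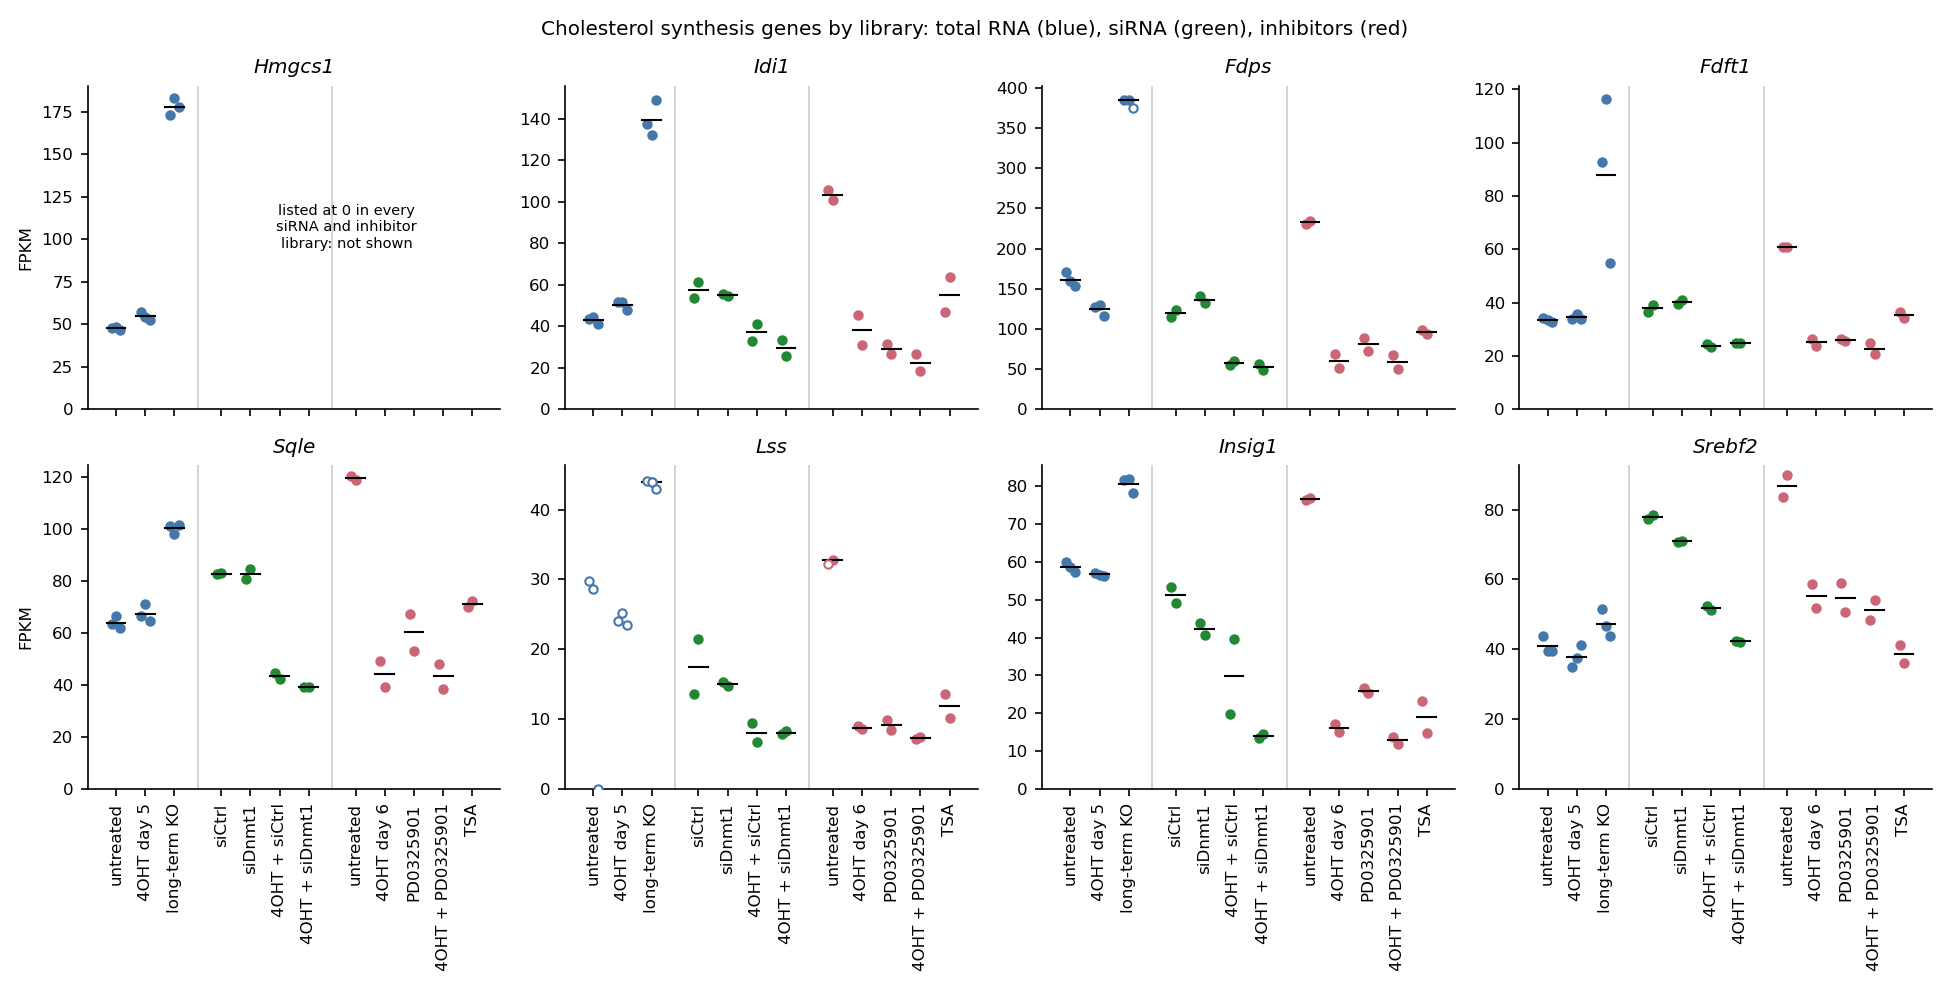
FPKM of each of the 8 genes in every library, with groups on the x axis, points for libraries, bars for the mean of the values used, and open circles for values not used in a test. Long-term KO libraries are the highest of the total RNA libraries for every gene but Srebf2, and 4OHT, PD0325901 and TSA libraries lie below their untreated libraries in the inhibitor experiment.

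The first question was how the pathway stood on day 5 of 4OHT, the early time point of the deletion. Members passed the test about as often as all genes tested, of which 36.5% passed in either direction, and their changes were small. Of 7 members tested, Hmgcs1 and Idi1 rose, Fdps fell and the other 4 did not pass the test, where 18.7% of all genes tested rose and 17.8% fell. The median log2 fold change of the members was 0.04, against 0.00 over all genes.

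Hmgcs1 was 47.6, 48.7 and 46.4 FPKM in untreated libraries and 57.5, 54.2 and 52.6 on day 5. The groups did not overlap, and the fold was 1.15 (log2 0.20, SE 0.04, limma adjusted p = 0.00667). Idi1 was 43.6, 44.5 and 40.9 in untreated libraries and 51.6, 51.6 and 47.8 on day 5, again with no overlap. Its log2 fold change was 0.23 (SE 0.06, limma adjusted p = 0.0174), which passed 0.05 no longer without untreated replicate 3 (0.0544), day 5 replicate 1 (0.0570) or day 5 replicate 2 (0.0571). Fdps went the other way, from 170.3, 159 and 153 FPKM to 127, 130.2 and 116, which is a log2 fold change of -0.37 (SE 0.06, limma adjusted p = 0.00282). All 3 day 5 libraries were below all 3 untreated libraries. The log2 fold changes of Sqle, Fdft1, Insig1 and Srebf2 were 0.08, 0.04, -0.05 and -0.11. On day 5 the 4 epithelial markers summed to 4.19 to 5.27 FPKM against 1.22 to 1.56 in untreated libraries, with 2 and 1 of them at 1 FPKM. The fibroblast markers were summed without Col1a1 and S100a4, which had no usable value in some libraries. The 5 of 7 left gave 1276 to 1350 against 1550 to 1580. Within this sum Col3a1 was at 86.5 to 94.0 against 243 to 260, but Thy1 at 29.7 to 30.7 against 17.3 to 20.6. Their part in the result was not tested.

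The next comparison asked how the pathway stood in cells kept for more than 2 weeks after 4OHT. Of 7 members tested, 6 rose, by up to 3.74-fold, and none fell, where 37.7% of all genes tested rose and 29.5% fell, and the median log2 fold change was 1.26 against 0.07 over all genes. The median member stood at 239%, 240% and 162% of its untreated mean in the 3 long-term KO libraries.

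Hmgcs1, which makes HMG-CoA early in the pathway, was 173, 183 and 178 FPKM in long-term KO libraries, all above 48.7, the highest untreated value. That is 3.74-fold (log2 1.90, SE 0.04, limma adjusted p = 2.03e-08), the largest rise among the members. Idi1 was 137, 132 and 149 FPKM and rose 3.24-fold (log2 1.70, SE 0.06, limma adjusted p = 1.68e-07). Its promoter window above holds GGGCGG once and CCAAT on 2 occasions but no match to the core of the sterol regulatory element. Fdps, already the highest of the 8, was 384 and 385 FPKM in the 2 libraries used and rose 2.39-fold (log2 1.26, SE 0.06, limma adjusted p = 3.9e-06). The library not used gave 375 for the joined locus.

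Fdft1, which commits farnesyl diphosphate to sterols, was the least even member. It was 92.6, 116 and 54.9 FPKM in long-term KO libraries, still all above the untreated 32.6 to 34.3, and rose 2.51-fold (log2 1.33, SE 0.24, limma adjusted p = 0.00141). Its locus ended at 63796779 and 63796778 in the 2 higher libraries and at 63796630 in the lowest one, as in the untreated libraries. Sqle was 101, 98.1 and 102 FPKM against 63.3, 66.3 and 61.9, a 1.57-fold rise (log2 0.65, SE 0.04, limma adjusted p = 6.39e-06). The locus over most of Lss gave 44.2, 43.9 and 43.0 FPKM, against 29.7, 28.7 and 0 in untreated and 24.0, 25.2 and 23.4 on day 5. Lss was not tested there, because the row covered 87.4% of the gene in 8 libraries and 99.9% in long-term KO replicate 2.

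The 2 regulators had smaller log2 fold changes than any of the 5 enzyme genes tested. Insig1 was 81.6, 82.1 and 78.1 FPKM in long-term KO libraries against 60.1, 58.8 and 57.3, a 1.37-fold rise with no overlap (log2 0.46, SE 0.03, limma adjusted p = 5.68e-06). Srebf2 was 51.5, 46.7 and 43.7 FPKM against 43.8, 39.4 and 39.4. Its groups overlapped by 1 library, and its log2 fold change of 0.21 (SE 0.08) did not pass the test (limma adjusted p = 0.0573). It passed without untreated replicate 1 (0.0406), day 5 replicate 1 (0.0484), day 5 replicate 3 (0.0437) or long-term KO replicate 3 (0.0355). No call of a member in this comparison was lost when any 1 of the 9 libraries was left out.

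Long-term KO libraries were also set against day 5, which tests the difference between the time points directly. All 7 members tested were higher in long-term KO, where 35.7% of all genes tested were, with a median log2 difference of 1.28 against 0.04. Fdps differed by 1.63 (SE 0.06, limma adjusted p = 1.33e-06), since it was lower on day 5 than in untreated libraries and higher later. Srebf2 differed by 0.32 (SE 0.08, limma adjusted p = 0.0101), with 34.8, 37.6 and 41.2 FPKM on day 5 and no overlap with long-term KO. The summed level of the 4 adipocyte markers moved with 4OHT in this experiment. It was 2.25 to 4.01 FPKM in untreated, 0.210 to 0.540 on day 5 and 0.224 to 0.809 in long-term KO libraries. Plin1 was at 0 in all 3 groups, and 1 of 4 markers was at 1 FPKM in untreated libraries and none in the others. That 1 was Fabp4, at 1.99 to 2.75, 0.210 to 0.496 and 0.194 to 0.337 FPKM in that order. Their part in the result was not tested.

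**Figure D3:**
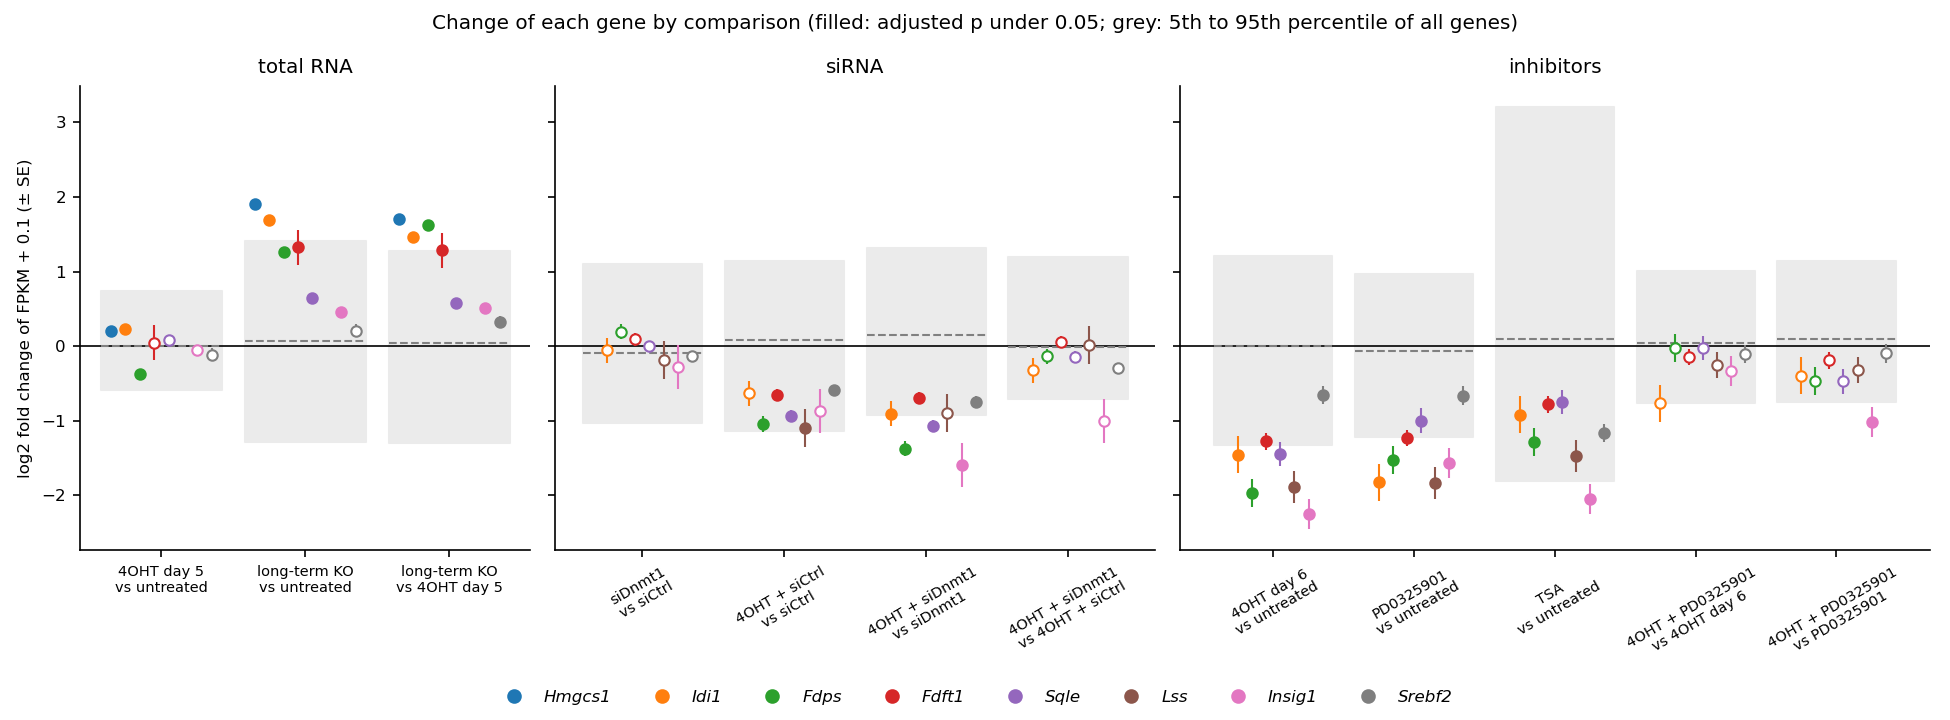
Log2 fold change of FPKM + 0.1 of each gene in 12 comparisons, with bars for the SE, filled points for adjusted p under 0.05, dashed lines for the median of all genes and grey boxes for their 5th to 95th percentile. In long-term KO the members lie above 0, with Hmgcs1 at 1.90, and with 4OHT on day 6, PD0325901 or TSA they lie below 0, with Insig1 at -2.25, -1.56 and -2.05.

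The siRNA experiment asked whether lowering Dnmt1 changes these genes, alone or with 4OHT. Dnmt1 siRNA alone left no member past the test, whereas 4OHT with control siRNA lowered 5 of 7 members and 4OHT with siDnmt1 lowered 6 of 7. With siDnmt1 against siCtrl, 0 of 7 members passed the limma test, 0 had an unadjusted p under 0.05, and 7.87% of all genes tested passed in either direction. Of all genes called, 39.2% were higher, and 52.8% were higher under median-ratio scaling. The member with the largest change was Insig1, at 53.5 and 49.2 FPKM with siCtrl and 43.9 and 40.7 with siDnmt1, which do not overlap but gave a log2 fold change of -0.28 (SE 0.30, limma adjusted p = 0.603). Sqle was 82.5 and 83.0 FPKM with siCtrl and 80.8 and 84.3 with siDnmt1. Fdps was 115 and 124 with siCtrl and 140.4 and 133 with siDnmt1, for a log2 fold change of 0.19 (SE 0.10, limma adjusted p = 0.301).

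With 4OHT and siCtrl against siCtrl, 5 of 7 members fell, where 6.39% of all genes tested fell, and the median log2 fold change was -0.87 against 0.08 over all genes. Of all genes called, 53.4% were higher, and 41.3% under median-ratio scaling. Sqle, at 44.5 and 42.1 FPKM, fell by 0.93 on the log2 scale (SE 0.08, limma adjusted p = 0.00272). Fdps, at 55.7 and 60.1 FPKM, fell by 1.04 (SE 0.10, limma adjusted p = 0.0042). Both 4OHT libraries were well below both siCtrl libraries for these 2 enzyme genes. Fdft1 was 36.6 and 39.0 FPKM with siCtrl and 24.3 and 23.5 with 4OHT, and fell by 0.66 (SE 0.08, limma adjusted p = 0.00856). Lss was 13.6 and 21.4 FPKM with siCtrl and 9.38 and 6.70 with 4OHT, and fell by 1.10 (SE 0.25, limma adjusted p = 0.0388). The wide spread of Lss lies within siCtrl itself. Srebf2 was 77.2 and 78.5 FPKM with siCtrl and 52.4 and 51.3 with 4OHT, and fell by 0.59 (SE 0.07, limma adjusted p = 0.00745).

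Idi1 and Insig1 did not pass with control siRNA. Idi1 was 53.6 and 61.3 FPKM with siCtrl and 33.2 and 41.1 with 4OHT, for a log2 fold change of -0.63 (SE 0.17, limma adjusted p = 0.0541). Insig1 was 19.8 and 39.7 FPKM in the 2 libraries of 4OHT with siCtrl, for a log2 fold change of -0.87 (SE 0.30, limma adjusted p = 0.103). The groups overlapped for neither gene, but the 2 4OHT libraries of Insig1 lay apart from each other. Insig1 passed with either of these libraries left out, at -0.37 without replicate 1 (limma adjusted p = 0.0499) and -1.37 without replicate 2 (0.00188). Idi1 passed without that replicate 2 (limma adjusted p = 0.0267) and without replicate 1 (0.0471) or 2 (0.0464) of 4OHT with siDnmt1. Replicate 2 of 4OHT with siCtrl, where Insig1 was higher, also had a summed level of the 4 epithelial markers of 12.6 FPKM, against 1.12 in replicate 1, and their part in the result was not tested. Only 2 of 7 members passed without siCtrl replicate 1 and 1 of 7 without siCtrl replicate 2, and Sqle passed in each of the 8 fits that left out 1 library. Lss was lost in 7 of these 8 fits, with adjusted p from 0.0632 to 0.188. The 7 fibroblast markers summed to 2049 to 3439 FPKM with 4OHT and siCtrl against 4491 to 4613 with siCtrl. They did not all move with the sum. Col1a1 was at 317 to 416 FPKM against 1106 to 1148, and Vim at 1042 to 1358 against 925 to 965. The part of these markers was not tested.

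With siDnmt1 in both arms, 6 of 7 members fell with 4OHT, where 4.52% of all genes tested fell. The median log2 fold change of the members was -0.91, against 0.15 over all genes. Of all genes called here 66.9% were higher, and 37.5% were under median-ratio scaling and 40.0% under quantile normalization. Fdps went from 140.4 and 133 FPKM to 56.7 and 48.8, a fall of 1.38 on the log2 scale (SE 0.10, limma adjusted p = 0.00246). Sqle went from 80.8 and 84.3 to 39.3 and 39.05, a fall of 1.07 (SE 0.08, limma adjusted p = 0.00202). Insig1 had the largest fall, from 43.9 and 40.7 to 13.5 and 14.4, which is 1.59 (SE 0.30, limma adjusted p = 0.0272). Idi1, Srebf2 and Fdft1 fell by 0.91, 0.75 and 0.70, and Lss, at 7.78 and 8.23 FPKM, had a log2 fold change of -0.90 (SE 0.25, limma adjusted p = 0.0627) and passed without replicate 1 (0.0302) or 2 (0.0300) of 4OHT with siCtrl. Without siDnmt1 replicate 1, and likewise without siDnmt1 replicate 2, 2 of 7 members passed. Sqle and Fdps passed in each of the 8 fits that left out 1 library, while Insig1 was lost in 6 and Idi1 in 5 of them.

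Whether siDnmt1 altered the response to 4OHT was tested in the same fit. For the interaction, 0 of 7 members passed the limma test, 0 had an unadjusted p under 0.05, and 0.209% of all genes tested passed in either direction. The interaction of Insig1 was -0.73 on the log2 scale (SE 0.42, limma adjusted p = 0.61) and that of Fdps was -0.33 (SE 0.15, limma adjusted p = 0.524). Among 4OHT libraries, siDnmt1 against siCtrl gave 0 of 7 members past the limma test, 2 with an unadjusted p under 0.05, and 2.07% of all genes tested in either direction. Those 2 were Insig1, with a log2 fold change of -1.004 (SE 0.30, limma adjusted p = 0.149), and Srebf2, at -0.29 (SE 0.07, limma adjusted p = 0.104). Without replicate 1 of 4OHT with siCtrl, both passed (limma adjusted p = 0.00133 and 0.0364), and Insig1 passed for the interaction, at -1.22 (limma adjusted p = 0.0117). The 4 epithelial markers summed to 55.4 to 55.8 FPKM with siDnmt1 alone, 53.5 to 86.2 with 4OHT and siDnmt1 and 0.677 to 0.986 with siCtrl alone, with 3, 3 and 0 of the 4 at 1 FPKM, and their part in these values was not tested.

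In the inhibitor experiment 4OHT was followed to day 6 without transfection, and here the pathway was low. All 7 members tested fell, where 12.6% of all genes tested fell, with a median log2 fold change of -1.46 against 0.00 over all genes. The median member stood at 41.1% and 29.9% of its untreated mean in the 2 libraries. Insig1 had the largest fall, from 76.5 and 77.0 FPKM to 17.1 and 15.02, which is 4.76-fold (log2 -2.25, SE 0.20, limma adjusted p = 0.000661). Its promoter window above holds GGGCGG on 3 occasions and CCAAT once.

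Among the enzymes, Fdps went from 231 and 234 FPKM to 68.3 and 51.6, a 3.91-fold fall (log2 -1.97, SE 0.19, limma adjusted p = 0.000884). Lss went from 32.8 in the untreated library used to 9.01 and 8.498, a 3.72-fold fall (log2 -1.89, SE 0.21, limma adjusted p = 0.00248). The untreated arm of Lss is this 1 library here and in the comparisons of PD0325901 and TSA, and is assumed to vary like the other groups, so the Lss calls have no replicate check on that side. The untreated library left out was listed at 32.2 for Lss. Idi1 went from 106 and 101 FPKM to 45.6 and 30.9 (log2 -1.46, SE 0.25, limma adjusted p = 0.00664). Sqle went from 120.2 and 119 to 49.1 and 39.0 (log2 -1.45, SE 0.16, limma adjusted p = 0.00161). For each of these genes replicate 2 of 4OHT day 6 was the lower of the 2 libraries. Fdft1, at 60.8 and 61.0 FPKM in untreated libraries and 26.5 and 23.7 with 4OHT, fell by 1.28 on the log2 scale (SE 0.11, limma adjusted p = 0.000601). Srebf2 changed least, from 83.7 and 89.9 FPKM to 58.6 and 51.7, a fall of 0.66 (SE 0.12, limma adjusted p = 0.00976), and this call was lost without untreated replicate 1 (limma adjusted p = 0.0512), without untreated replicate 2 (0.0763) or without day 6 replicate 2 (0.0535).

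The day 6 values run against those of the total RNA experiment. For Idi1, the log2 fold change against untreated was 0.23 on day 5, 1.70 in long-term KO and -1.46 on day 6 of the inhibitor experiment. Fdps had 1.26 in long-term KO, -0.37 on day 5 and -1.97 on day 6, and Insig1 had 0.46, -0.05 and -2.25 in that order. The experiments differ in library preparation and harvest day and were normalized separately. The difference was therefore not tested, and these factors cannot be told apart. For the day 6 libraries the days of 4OHT were not recorded here, so whether the schedule also differed is not known. The untreated libraries also stood at different levels, with Idi1 at 40.9 to 44.5 FPKM in total RNA, 53.6 to 61.3 with siCtrl and 101 to 106 in the inhibitor experiment.

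PD0325901 alone, which blocks MEK and so the ERK pathway, lowered the same list of 7 members. All 7 fell, where 7.78% of all genes tested fell, and the median log2 fold change was -1.53 against -0.07 over all genes. Idi1 was 31.4 and 26.8 FPKM (log2 -1.83, SE 0.25, limma adjusted p = 0.00409). Lss was 9.90 and 8.44 FPKM (log2 -1.83, SE 0.21, limma adjusted p = 0.00366). Insig1 was 26.6 and 25.2 FPKM, a fall of 1.56 (SE 0.20, limma adjusted p = 0.00334). Fdps, at 88.9 and 72.9 FPKM, fell by 1.53, Fdft1, at 26.2 and 25.5, by 1.23, and Sqle, at 67.3 and 52.9, by 1.00. In each case both libraries were below both untreated libraries. Srebf2, at 58.9 and 50.7 FPKM, fell by 0.67 (SE 0.12, limma adjusted p = 0.0139). Without PD0325901 replicate 2, whose header names another group, Srebf2 had an adjusted p of 0.0547 by limma and the other 6 members passed. Without untreated replicate 2, 4 of the 6 members then testable passed, since Lss had no other untreated value, and the calls of Sqle (limma adjusted p = 0.0645) and Srebf2 (0.0711) were also lost without untreated replicate 1. This comparison shares its untreated libraries with that of 4OHT day 6.

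TSA, which raises histone acetylation, also lowered all 7 members, where 24.5% of all genes tested fell and 31.2% rose. The median log2 fold change was -1.17 against 0.09 over all genes, and the untreated libraries are the same as above. Insig1 had the largest fall again, to 23.2 and 14.6 FPKM, or 4.14-fold (log2 -2.05, SE 0.20, limma adjusted p = 0.000128). Lss was 13.6 and 10.1 FPKM (log2 -1.47, SE 0.21, limma adjusted p = 0.00127). Fdps was 98.2 and 93.4 FPKM (log2 -1.28, SE 0.19, limma adjusted p = 0.000819). Srebf2, the transcription factor gene, was at its lowest of the 5 groups, at 41.3 and 36.0 FPKM (log2 -1.17, SE 0.12, limma adjusted p = 0.000186). The enzyme genes Idi1, Fdft1 and Sqle fell less, by 0.92, 0.78 and 0.75 on the log2 scale, at 46.7 and 63.7, 36.4 and 34.4, and 70.0 and 72.1 FPKM. The call of Idi1 was lost without TSA replicate 1 (limma adjusted p = 0.0928), untreated replicate 1 (0.0668) or untreated replicate 2 (0.0533). TSA libraries also had 4 epithelial markers summing to 31.3 to 32.4 FPKM against 1.28 to 1.39 in untreated libraries, with 2 and 0 of them at 1 FPKM, and haematopoietic markers summing to 60.6 to 67.0 against 4.27 to 4.90, with 1 of 5 listed genes at 1 FPKM in either group and Adgre1 and Cd3e at 0. Their part in the result was not tested.

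4OHT and PD0325901 together asked whether the 2 falls add. With both, the members stood at or a little below the lower of the single treatments, and the change was smaller than the sum of the single changes for all 7, of which 1 passed the test of that difference. Against 4OHT day 6, the addition of PD0325901 gave 0 of 7 members past the limma test, 1 with an unadjusted p under 0.05, and 6.79% of all genes tested in either direction. That 1 was Idi1, at 26.5 and 18.2 FPKM (log2 -0.77, SE 0.25, limma adjusted p = 0.113). Of all genes called in this comparison 62.0% were higher, and 49.2% under quantile normalization. Against PD0325901 alone, the addition of 4OHT lowered 1 of 7 members, where 2.63% of all genes tested fell, and of all genes called 68.1% were higher, against 51.1% under median-ratio scaling and 48.4% under quantile normalization. That member was Insig1, which went from 26.6 and 25.2 FPKM to 13.6 and 11.9 (log2 -1.02, SE 0.20, limma adjusted p = 0.0244), and this call was lost in 6 of 10 fits that left out 1 library, with either library of PD0325901, of untreated or of 4OHT with PD0325901 left out (adjusted p 0.0533 to 0.103).

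The interaction compares the change with both treatments with the sum of the changes with each. It was above 0 for all 7 members, from 0.56 to 1.57 with a median of 1.09 on the log2 scale. The same untreated libraries enter the interaction of every gene, so the 7 signs are not separate results. A high level in those libraries would raise all 7 values, and this was not tested. For Fdps the sum of the single changes was -3.50 and the change with both was -1.995, and for Insig1 these were -3.81 and -2.58. For Lss they were -3.73 and -2.15, and for Srebf2 -1.32 and -0.76. Of the 7 members, 1 passed the test, where 0.471% of all genes tested passed in this direction. This was Fdft1, at 24.8 and 20.7 FPKM with both treatments, with an interaction of 1.09 (SE 0.16, limma adjusted p = 0.0385). It was lost in 9 of 10 fits that left out 1 library (adjusted p 0.0511 to 0.174), the exception being 4OHT with PD0325901 replicate 2, and no member passed under median-ratio scaling. Fdps passed without 4OHT with PD0325901 replicate 2 (limma adjusted p = 0.0399), and Insig1 passed without TSA replicate 1 (0.0422) or 2 (0.0430). Of all genes called for the interaction 70.5% were positive, and 54.7% under median-ratio scaling.

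**Figure D4:**
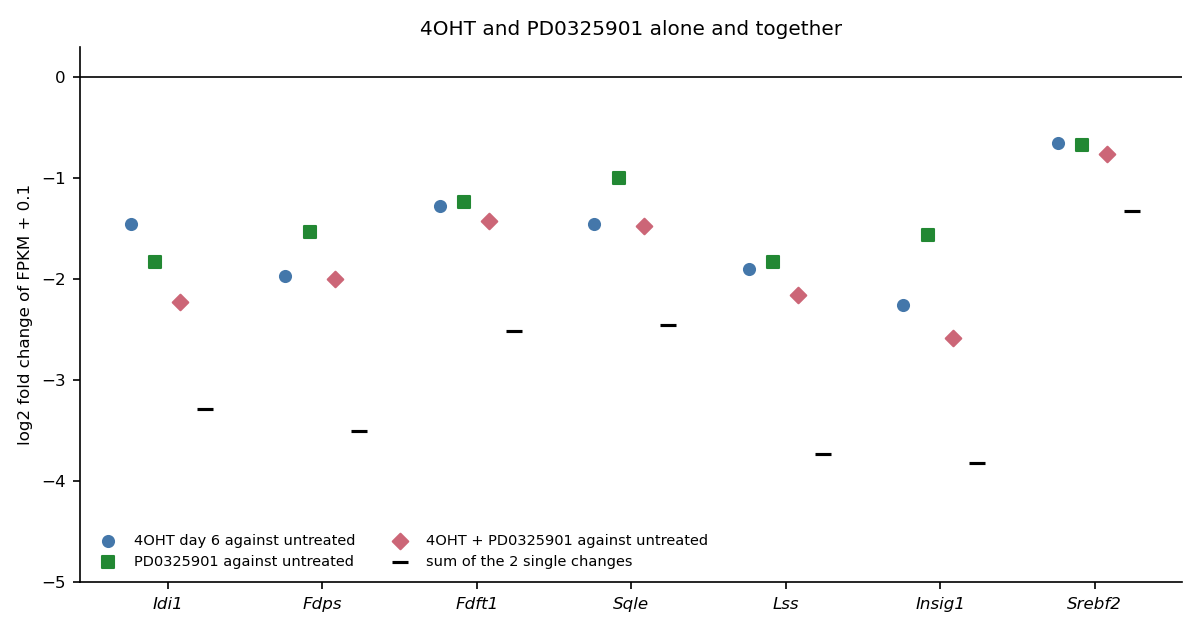
Log2 fold change of FPKM + 0.1 against untreated libraries for 7 genes with 4OHT on day 6, with PD0325901, with both, and the sum of the single changes. With both treatments each of the 7 genes lies below both single changes and above their sum, with -1.995 against -3.50 for Fdps and -2.58 against -3.81 for Insig1.

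The summed level of the adipocyte markers again moved with treatment, mostly through Fabp4. Fabp4 was at 7.20 to 13.02 FPKM in untreated inhibitor libraries and 0.164 to 0.754 with 4OHT on day 6. The 4 genes summed to 7.20 to 13.02 FPKM in untreated inhibitor libraries, 3.25 to 4.02 with PD0325901, 4.53 to 4.64 with TSA, 1.27 to 3.28 with 4OHT and PD0325901 and 0.362 to 0.754 with 4OHT on day 6. Adipoq, Plin1 and Cfd were at 0 in untreated libraries, so 1 of the 4 genes, Fabp4, made up the sum there. Each of the others stayed at or below 0.198 FPKM in the treated groups. The fibroblast markers without S100a4, which had no usable value in 2 libraries, summed over 6 genes to 2562 to 2792 FPKM in untreated libraries, 2123 to 2163 with 4OHT on day 6, 4023 to 4335 with PD0325901, 2617 to 2630 with both and 2717 to 2840 with TSA. These sums hide genes that moved in opposite directions. Col1a1 was at 668 to 717 FPKM in untreated libraries, 1720 to 1841 with PD0325901 and 233 to 237 with TSA. Vim went the other way, at 931 to 1085, 468 to 652 and 2095 to 2202 in that order. Their part in the results of the inhibitor experiment was not tested.

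The order of the groups was read for each member in the inhibitor experiment from its mean FPKM. Untreated libraries were the highest for all 7. Fdps and Sqle followed in the order TSA, PD0325901, 4OHT day 6 and both treatments, of which the last pair overlapped. For Insig1 the order was PD0325901, TSA, 4OHT day 6 and both, and TSA overlapped 4OHT day 6. For Idi1 and Lss, 4OHT day 6 overlapped PD0325901, with TSA above them and both treatments below, and for Fdft1 PD0325901 overlapped 4OHT day 6, which overlapped both treatments. For Srebf2 the groups with 4OHT, PD0325901 and both overlapped, and TSA was below them.

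The other genes of the pathway were read from 6 lists that hold 55 genes. In long-term KO, 28 of 42 tested rose and 5 fell, where 37.7% of all genes tested rose and 29.5% fell, with a median log2 fold change of 0.45. Of the other genes that lead to farnesyl diphosphate and its branches, 4 of 5 tested rose, with a median of 1.01. The kinases Mvk and Pmvk rose by 1.04 and 1.01, and the decarboxylase Mvd by 0.87. Of the genes from lanosterol to cholesterol, 6 of 9 rose and 1 fell, with Dhcr7, a sterol reductase, at 1.45, Nsdhl at 0.75 and Msmo1 at 0.69. The gene that fell was Cyp51, the lanosterol demethylase, at -0.37, named after its values were seen. Hsd17b7 was listed at 0 in 2 untreated libraries and at 9.19 FPKM in the other, and at 11.35 to 11.99 in long-term KO, so that no fold is given. Its call is counted among the 6 and the 28 that rose.

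Genes of uptake and transport split in long-term KO. Of 8 tested, 6 rose and 1 fell, with a median of 0.60, where 37.7% of all genes tested rose and 29.5% fell. Mylip, which encodes a ubiquitin ligase, rose by 3.07, from 1.53 to 1.82 FPKM to 14.9 to 15.3. Stard4, a cytosolic sterol carrier, rose by 0.98, and Scarb1 by 0.70. Of 6 regulators of SREBP, 2 rose and 2 fell, which is near the shares over all genes. Rnf145 was at 0.86 and Mbtps1 at 0.44, and Insig2 at -0.43 and Mbtps2 at -0.32. Srebf1 had a log2 fold change of 0.17 (limma adjusted p = 0.119). Of 10 genes of fatty acid synthesis, 8 rose and 0 fell, with Acss2 at 1.65 and Elovl6 at 1.02. Of 4 genes of oxysterol handling and efflux, 2 rose and 1 fell: Lpcat3 at 0.65, Nr1h2 at 0.14 and Ch25h, which makes an oxysterol, at -0.86.

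On day 5, of 42 genes of the other lists tested 7 rose and 11 fell, where 18.7% of all genes tested rose and 17.8% fell. The 7 include Hsd17b7, for which no fold is given because of its untreated values above. Of 10 genes of fatty acid synthesis, 6 fell and 1 rose, with the desaturase genes Fads2 and Scd1 at -0.49 and -0.30 and Acss2 at 0.37. Srebf1 had -0.08 and Insig2 -0.12, neither past the test. Ch25h had the largest fall among them, at -1.12.

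Under 4OHT on day 6, 27 of 46 tested genes of the other lists fell and 3 rose, with a median of -0.82 on the log2 scale. Of all genes tested, 12.6% fell and 12.4% rose. From lanosterol to cholesterol, 8 of 9 fell, with Cyp51 at -2.31 and Nsdhl at -2.07. Acat2 fell by 1.55 and Mvd by 1.44. Stard4 fell by 1.45. Insig2 was at -0.92, Elovl6, an elongase of fatty acids, at -1.83 and Ch25h at -2.82, each past the test. Srebf1 had -0.43 (limma adjusted p = 0.0548). The 3 that rose were Ggps1, Npc2 and Soat1, at 0.55, 0.88 and 0.97.

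In the siRNA experiment, siDnmt1 against siCtrl raised 3 of 47 genes of these lists and lowered 0, with Hsd17b7 at 1.02 and Scd1 at 0.46. Of all genes tested, 3.08% rose and 4.79% fell. With 4OHT and siCtrl, 15 of 47 fell and 0 rose, where 6.39% of all genes tested fell and 7.31% rose. The median was -0.33, with Cyp51 at -1.36, Nsdhl at -1.04 and Ch25h at -2.74. Srebf1 and Insig2 had -0.27 and -0.20 and did not pass. With 4OHT and siDnmt1 against siDnmt1, 19 of 47 fell and 1 rose, where 4.52% of all genes tested fell and 9.13% rose. Cyp51 was at -1.68 and Ch25h at -2.91, and the gene that rose was Nr1h3, a receptor for oxysterols, at 1.99. Between the 4OHT libraries, siDnmt1 against siCtrl gave 0 of 47 past the test, where 2.07% of all genes tested passed in either direction.

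PD0325901 lowered 23 of 46 genes of these lists and raised 2, where 7.78% of all genes tested fell and 5.92% rose. The median was -0.53. The log2 fold changes of genes that fell were -1.86 for Nsdhl, -1.83 for Cyp51, -1.31 for Stard4 and -3.37 for Ch25h. Srebf1 and Insig2 had -0.32 and -0.29 and did not pass the test. The 2 that rose were Npc1, at 0.76, and Me1, at 0.54, named after their values were seen. For the interaction with 4OHT, 5 of 46 passed, all positive, where 0.471% of all genes tested passed in this direction. They were Nsdhl at 1.74, Cyp51 at 1.63, Sc5d at 1.12, Mvd at 1.06 and Stard4 at 1.05.

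With TSA 22 of 46 fell, where 24.5% of all genes tested fell, and 12 rose, where 31.2% of all rose, with a median of -0.49. Cyp51 and Nsdhl fell by 2.30 and 2.08. Acat2 was at -2.12, Srebf1 at -0.40 and Fasn, the fatty acid synthase gene, at -2.54, each past the test. Against these, Acss2, which makes acetyl-CoA from acetate, rose by 2.46, from 5.36 and 5.96 FPKM to 31.6 and 31.3, Hsd17b7 by 1.34 and Insig2 by 0.79. The median of 10 genes of fatty acid synthesis was -0.79, with 3 higher and 6 lower.

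**Figure D5:**
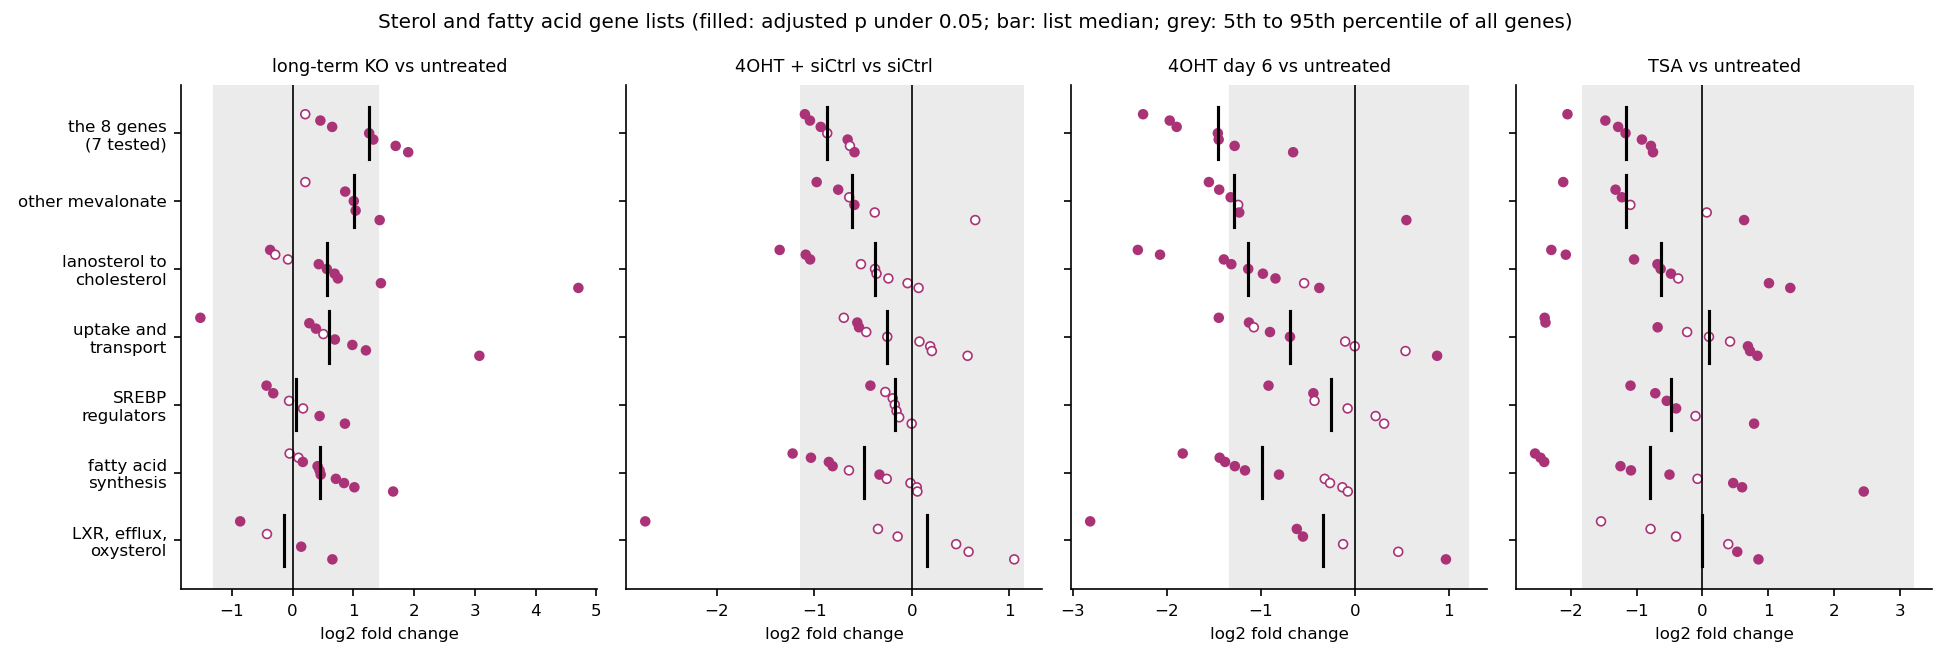
Log2 fold change of the genes of each list in 4 comparisons, with a row for each list, points for genes (filled for adjusted p under 0.05), bars for list medians and grey for the 5th to 95th percentile of all genes. The median of the members is 1.26 in long-term KO, -0.87 with 4OHT and siCtrl, -1.46 with 4OHT on day 6 and -1.17 with TSA, and the point near 5 in the first panel is Hsd17b7, listed at 0 in 2 of 3 untreated libraries.

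The members were also compared over all 27 libraries, after the mean of each experiment was taken from log2(FPKM + 0.1). Over the 15 pairs of the 6 members tested in all 3 experiments, Pearson's r ran from 0.575 to 0.945 with a median of 0.840. These points share libraries, depth and treatment groups, so the r is a description with no p. Of 8399 genes tested in all 3 experiments, the 5 closest to the mean of the members included Stard4 (r = 0.957) and Nsdhl (0.948), which belong to the lists above, and Btd, the biotinidase gene (0.936), and Tpi1, the triosephosphate isomerase gene (0.936). Outside the lists the next were 0610007P14Rik (0.936), Pros1 (0.931) and Pcyt1b (0.8999). Mylip and Insig2 had an r of 0.403 and 0.219.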

How the data were processed

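Reads had been mapped by the authors to the mm9 genome (TopHat2 2.0.12), and FPKM had been estimated by Cufflinks in each library separately. The deposited files hold 1 FPKM table per library. The 2 deposited tables of the authors' own comparisons between groups were not used. The members and lists were chosen with earlier results of these data known. Genes were matched by symbol, or in total RNA libraries by a locus covering at least 95% of the gene and joined with no gene lying apart from it, and values without an OK status were left out. In the siRNA and inhibitor libraries, matching by position gave the value listed under the symbol for at least 99.97% of genes compared. Each experiment was fitted with limma 3.58.1 (R 4.3.3) on log2(FPKM + 0.1) with a mean-variance trend, all its groups in 1 fit, and Benjamini-Hochberg adjustment. A fold change on this scale understates the change of low genes. A gene was tested if it reached 1 FPKM in 3 libraries of the total RNA experiment or 2 of either other experiment and lacked a value in at most 1 library. There were 12 comparisons and 2 interactions. The fit was tested on simulated data.

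Genes outside the 8 were named by rule: Setdb1 and Dnmt1 as a check of labels, at most 4 genes per list and comparison with the largest change past the test, Srebf1 and Insig2 always, and the 5 genes most correlated with the mean of the members, with and without the list genes. Some genes that the rule takes are not reported here. Alternatives were pseudocounts of 0.01 and 1, median-ratio and quantile scaling, a filter at 5 FPKM and none, only the groups compared, a 2-fold limit, a replicate block, a looser match of loci, and each library left out in turn. Keeping joined loci and keeping failed estimates were added after the data were seen. Motifs were searched with Python 3.11.15. FPKM precision rests on the fragments implied by the deposited intervals, which cover counting and assignment error only.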

Additional observations from a re-analysis of the deposited data

Results flagged for a closer look

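The difference between the long-term KO and day 5 libraries, tested directly by limma, passed for all 7 members tested. It was 1.70 on the log2 scale for Hmgcs1, 0.57 for Sqle, 1.47 for Idi1, 1.63 for Fdps, 1.28 for Fdft1, 0.51 for Insig1 and 0.32 for Srebf2, each higher in long-term KO.

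The interaction of 4OHT and PD0325901 passed for Fdft1, at 1.09 on the log2 scale. It was lost in 9 of 10 fits that left out 1 library, and 0 members passed under median-ratio scaling.

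For 5 members every long-term KO library used was above all untreated libraries of its experiment and every 4OHT day 6 library was below those of its own. The log2 fold changes were 0.65 and -1.45 for Sqle, 1.70 and -1.46 for Idi1, 1.26 and -1.97 for Fdps, 1.33 and -1.28 for Fdft1, and 0.46 and -2.25 for Insig1. Idi1 was also above untreated on day 5, at 0.23. These differences between experiments were not tested.

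The locus over most of Lss, which entered no test in total RNA, had a lowest value of 43.0 FPKM in the long-term KO libraries, above the 29.7 FPKM of the highest untreated library. Groups of 2 or 3 libraries are too small for a test of single outlying libraries.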

How the results depend on the processing

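Of 50 called values of members, 0 reversed in 550 fits under other settings and 7 were no longer past the threshold, and in 459 fits that left out 1 library 0 reversed and 56 were lost. With a fold of at least 2 also asked for, the members called were 0 on day 5, 4 for long-term KO against day 5, 2 for 4OHT with siCtrl, 3 for 4OHT with siDnmt1 against siDnmt1 and 4 for TSA. With only the groups compared in the fit, 1 member passed for siDnmt1 against siCtrl and 2 for 4OHT with siCtrl. Quantile normalization gave 2 for 4OHT with PD0325901 against PD0325901, where 441 of 11668 genes tested fell. For the interaction of 4OHT and PD0325901, 2 members passed with a pseudocount of 1, with quantile normalization, with the replicate block and with failed estimates kept (chosen after seeing the data), and 0 with median-ratio scaling. The cause was not tested, except that a 2-fold limit removes smaller changes by construction. For that interaction 44 of 11668 genes tested were higher under quantile normalization and 29 under median-ratio scaling. The share of all genes is not given for the other settings here or with 1 library left out. Those counts of members therefore stand without one.

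With 1 library left out, the members called ranged from 2 to 3 on day 5, 6 to 7 in long-term KO, 7 to 7 for long-term KO against day 5, 0 to 0 for siDnmt1, 1 to 6 for 4OHT with siCtrl, 2 to 7 for 4OHT with siDnmt1 against siDnmt1, 0 to 2 for 4OHT with siDnmt1 against 4OHT with siCtrl, 4 to 7 for PD0325901, 5 to 7 for 4OHT day 6, 0 to 0 for 4OHT with PD0325901 against 4OHT, 0 to 1 against PD0325901, 5 to 7 for TSA, 0 to 1 for the interaction with siDnmt1 and 0 to 2 for that with PD0325901. Values that were not called and changed sign were, for siDnmt1 against siCtrl, Sqle (0.0893 under median-ratio and 0.0628 under quantile scaling, and -0.0342 to 0.0277 with 1 library left out), Idi1 (0.0385 and 0.0270, and -0.15 to 0.0425) and Lss (-0.51 to 0.14), for 4OHT with siDnmt1 against 4OHT with siCtrl, Lss (-0.0022 under quantile scaling, and -0.23 to 0.25), for 4OHT with PD0325901 against 4OHT, Sqle (-0.19 to 0.14) and Fdps (-0.25 to 0.20), against PD0325901, Srebf2 (-0.20 to 0.0112), and for the interaction with siDnmt1, Fdft1 (-0.0847 to 0.00654) and Lss (-0.13 to 0.52).

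Same-numbered libraries correlated above 0.1 in 1 of 9 pairs in total RNA, 0 of 12 in siRNA and 6 of 20 in inhibitor libraries, so the numbers were not taken to pair the libraries of an experiment. The 6 were all the same-numbered pairs among PD0325901, 4OHT day 6 and 4OHT with PD0325901 (0.206 to 0.259), a hint of pairing from the data and not from the labels. In groups of 2 libraries the deviations from the group mean mirror each other, so pairs of replicate 1 and of replicate 2 give the same r. The pairs counted for the siRNA and inhibitor experiments are therefore not all separate values. The replicate block changed the count of members called past 1.5 times only for the interaction with PD0325901, with the block at 2, Fdft1 and Fdps. With groups of 2 or 3 libraries, leaving 1 out can leave a single library, which is then assumed to vary like the others, and a change that missed the threshold at this size was not shown to be absent.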
